A study of Homo sapiens with 4 samples.

Results

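This account covers 10 human genes, the FGF receptors FGFR1, FGFR2, FGFR3 and FGFR4, the decoy receptor FGFRL1, and 5 feedback inhibitors of receptor signalling, IL17RD, SPRY1, SPRY2, SPRY4 and SPRED1. They were taken by name from a table of 64252 genes, and each of the 10 had a row that passed the filter on low counts. RNA came from the established neuroblastoma line SK-N-BE(2) in 2 groups, both transfected with a hairpin RNA. The hairpin targeted IGF2BP3 in 2 libraries (shIGF2BP3) and was a control in the other 2 (shControl). Both groups are the same line with no other labelled treatment, and the labels give no hairpin sequence, no time after transfection and no statement on separate cultures. IGF2BP3 binds mRNAs that carry the methyl mark m6A, and the study addressed its part in neuroblastoma progression.

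Fibroblast growth factors (FGFs) are secreted ligands that bind receptor tyrosine kinases together with heparan sulfate. An active receptor passes its signal through the adaptor FRS2 and the phosphatase SHP2 to RAS and the ERK kinases. ERK then switches on ETS factors and a set of inhibitors, among them the Sprouty and Spred proteins, which damp the same pathway. IL17RD, also known as Sef, is a membrane protein of the IL17 receptor family that restrains FGF signalling. FGFRL1 binds FGF ligands but lacks the tyrosine kinase domain of the other receptors.

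The group of genes was chosen by fold changes of this same comparison, in which IL17RD and FGFRL1 stood among the lowest genes after knockdown. All fold changes of the 10 genes are therefore given as a description, with no p-value. IGF2BP3 itself stood at 28.7 and 31.9 CPM (counts scaled to library depth, with TMM factors) in shIGF2BP3 libraries, against 156.5 and 138.9 CPM in shControl libraries. Library totals lay between 26755695 and 31946756 counts. Across all 19767 tested genes, the quasi-likelihood test of edgeR, adjusted by Benjamini-Hochberg, called 51.5% at an adjusted p under 0.05, 25.9% higher and 25.6% lower in shIGF2BP3. Of the 10 genes 7 were past that threshold and lower, 1 was past it and higher, and 2 were not past it. Of the 10, 4 were both past it and lower by a log2 fold change of 1 or more (9.16% of all tested genes) and 0 were higher by as much (10.4%). The groups did not overlap for 7 lower members and 1 higher member, against 36.7% lower, 37.8% higher and 74.5% in either direction over all tested genes. These counts follow from the choice of genes and are given as a description. The median log2 fold change was -0.86 for the 10 genes and 0.01 for all tested genes.

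The adrenergic neuroblastoma markers were present, and their summed level was 5681 to 6032 CPM in shIGF2BP3 and 7187 to 7416 CPM in shControl. Most of that sum was MYCN, at 4187 and 3961 CPM in shIGF2BP3 and 4635 and 4848 CPM in shControl. Of these 8 markers, 6 were lower past the test, 1 was higher (DBH, log2 fold change 1.67) and 1 was not past it. The 6 fibroblast markers summed to 707.3 to 723.3 CPM in shIGF2BP3 and 546.3 to 577.9 CPM in shControl, with 3 higher and 1 lower past the test. The 5 epithelial markers summed to at most 10.1 CPM, the 5 Schwann cell and glia markers to at most 9.21 CPM with SOX10 at 0, and the 4 leukocyte markers to at most 1.30 CPM with CD3E at 0. The part of these marker differences in the results was not tested. In bulk RNA, fewer cells of a type and less RNA per cell cannot be told apart.

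**Figure D1:**
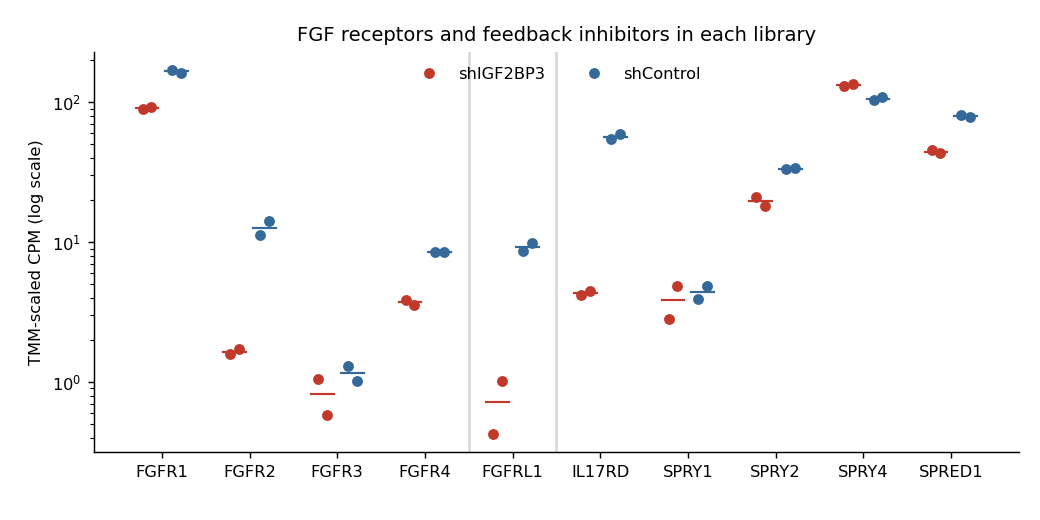
TMM-scaled CPM of each gene on a log axis, with 1 point per library (2 shIGF2BP3, 2 shControl) and a bar at the group mean. FGFRL1 and IL17RD show the widest gaps, FGFR3 and SPRY1 overlap between groups, and SPRY4 is the 1 gene with both shIGF2BP3 libraries above both shControl libraries.

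FGFR1 was the main receptor of these cells in both groups, and it was lower after knockdown together with FGFR2 and FGFR4. FGFR1 (ENSG00000077782, minus strand of chromosome 8, 38400215 to 38468834) had 90.2 and 91.7 CPM in shIGF2BP3, against 169.4 and 162.7 CPM in shControl. The shControl libraries stood well above both shIGF2BP3 libraries, and the log2 fold change was -0.87 (SE 0.07). FGFR1 overlaps LETM2 on the other strand, which had 301 and 247 counts in shIGF2BP3 and 233 and 404 counts in shControl. The library kit named in the labels does not mark strand, so reads within bases that such genes share cannot be told apart by strand.

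FGFR2, a receptor with splice forms that differ in the ligands they bind, showed the largest fold change of the 4 kinase receptors in these libraries. The gene (ENSG00000066468, minus strand of chromosome 10, 121478334 to 121598458) had 45 and 47 counts in shIGF2BP3, against 302 and 445 counts in shControl. These counts correspond to 1.59 and 1.71 CPM in shIGF2BP3 and 11.2 and 14.2 CPM in shControl. The groups did not overlap, and the log2 fold change was -2.95 (SE 0.26), the 133rd lowest of all tested genes. Splice forms were not resolved in the gene table.

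FGFR4 (ENSG00000160867, plus strand of chromosome 5, 177086886 to 177098144) had 3.85 and 3.57 CPM in shIGF2BP3, against 8.47 CPM in each shControl library. Its groups did not overlap, with a log2 fold change of -1.19 (SE 0.22). FGFR3 (ENSG00000068078, plus strand of chromosome 4, 1793293 to 1808872) was barely detected, at 30 and 16 counts in shIGF2BP3 and 35 and 32 counts in shControl. Its libraries overlapped between groups at 1.06 and 0.583 CPM in shIGF2BP3 and 1.30 and 1.02 CPM in shControl. The log2 fold change of FGFR3 was -0.48 (SE 0.48), a difference within the spread between libraries.

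Levels of different genes were set side by side per kilobase of all annotated exons of a gene, so shares within a family depend on that length. The 4 kinase receptors summed to 7.74 and 7.71 CPM per kilobase in shIGF2BP3, against 15.7 and 15.6 CPM per kilobase in shControl. FGFR1 made up 84.2% and 85.9% of that sum in shIGF2BP3 and 77.8% and 75.4% in shControl. FGFR2 made up 2.71% and 2.93% in shIGF2BP3, against 9.40% and 12.0% in shControl. FGFR4 held 10.3% and 9.59% in shIGF2BP3 and 11.1% and 11.2% in shControl. The mix thus shifted toward FGFR1 in both shIGF2BP3 libraries, while the share of FGFR4 differed by less than 2 percentage points between any pair of libraries.

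**Figure D2:**
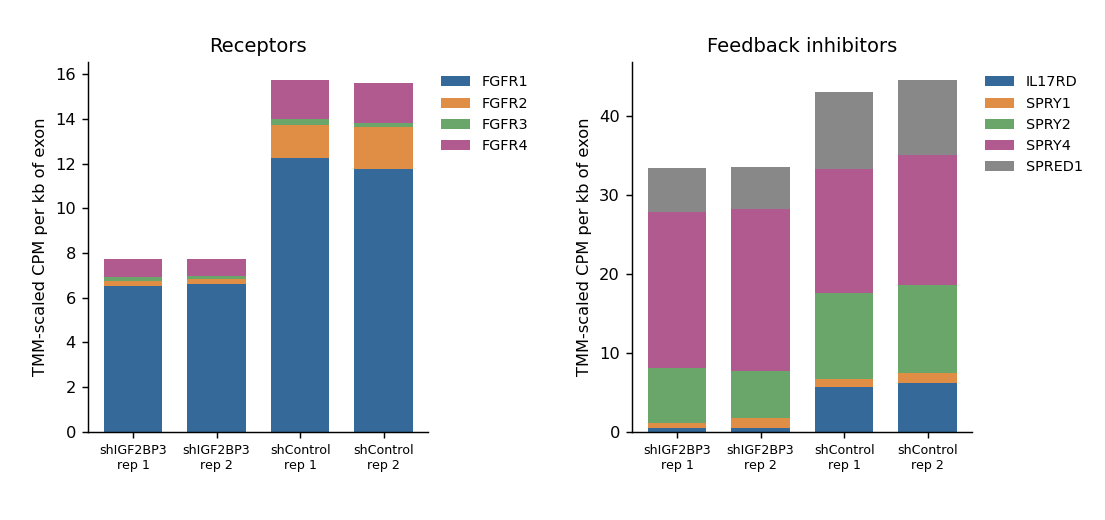
Stacked levels in TMM-scaled CPM per kilobase of exon for the kinase receptors (left) and the feedback inhibitors (right), 1 bar per library. The receptor sum is 7.74 and 7.71 in shIGF2BP3 and 15.7 and 15.6 in shControl. SPRY4 is the largest part of the inhibitors drawn in all 4 libraries, and SPRED2 is not drawn.

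FGFRL1 (ENSG00000127418, plus strand of chromosome 4, 1009936 to 1026897) had 12 and 28 counts in shIGF2BP3, against 233 and 306 counts in shControl. This gave 0.424 and 1.02 CPM in shIGF2BP3 and 8.65 and 9.78 CPM in shControl, with no overlap. Its log2 fold change of -3.68 (SE 0.33) was the 56th lowest of all tested genes. Among coding genes of average log2 CPM 1 or more that were past the test with separate groups, it was the 7th lowest. Because the shIGF2BP3 libraries differed from each other, the value was -4.43 without shIGF2BP3 replicate 2 and -3.17 without shIGF2BP3 replicate 1.

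IL17RD (ENSG00000144730, minus strand of chromosome 3, 57089982 to 57170306) had 119 and 123 counts in shIGF2BP3, against 1467 and 1843 counts in shControl. The levels were 4.20 and 4.48 CPM in shIGF2BP3 and 54.5 and 58.9 CPM in shControl. Both shIGF2BP3 libraries were near each other and far below both shControl libraries. Its log2 fold change was -3.71 (SE 0.14), the 54th lowest of all tested genes and the 6th lowest in the coding set described for FGFRL1. Leaving out single libraries gave -3.76 to -3.66.

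Of 4 other genes of the IL17 receptor family, 1 rose, 0 fell and 3 did not pass. Over all tested genes the shares were 25.9% higher and 25.6% lower, and 4 genes are too few to show a difference from them. The median log2 fold change of these 4 genes was 0.33. IL17RA, the common subunit of IL17 receptors, rose by 0.52 on the log2 scale (SE 0.12, adjusted p = 0.00119 in edgeR's test). It averaged 28.5 ± 1.10 CPM in shIGF2BP3 and 19.9 ± 0.513 CPM in shControl (SD, n = 2 each). IL17RB stood at 0.49, IL17RC at -0.40 and IL17RE at 0.16 on the log2 scale, and none of them passed the test. IL17RC was past it without shControl replicate 1, at -0.60 on the log2 scale (adjusted p = 0.0183 by edgeR's quasi-likelihood test).

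Promoter windows are shown for the members with the largest falls and for the 1 member with an ETS match, so that the letters searched can be seen. They come from RefSeq on GRCh38.p14 and run from 250 bases before to 50 bases after an annotated start, which matched 9 of the 10 genes with 18 windows in all. Each is given 5′ to 3′ on the gene's strand in lower case, with any searched motif in capitals.
IL17RD, chr3:57170268-57170567, minus strand: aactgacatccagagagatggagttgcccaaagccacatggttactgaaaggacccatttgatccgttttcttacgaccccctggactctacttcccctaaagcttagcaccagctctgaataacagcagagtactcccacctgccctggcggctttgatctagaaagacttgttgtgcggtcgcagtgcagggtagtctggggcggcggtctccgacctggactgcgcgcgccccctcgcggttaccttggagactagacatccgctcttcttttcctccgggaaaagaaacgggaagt
FGFRL1, chr4:1012214-1012513, plus strand: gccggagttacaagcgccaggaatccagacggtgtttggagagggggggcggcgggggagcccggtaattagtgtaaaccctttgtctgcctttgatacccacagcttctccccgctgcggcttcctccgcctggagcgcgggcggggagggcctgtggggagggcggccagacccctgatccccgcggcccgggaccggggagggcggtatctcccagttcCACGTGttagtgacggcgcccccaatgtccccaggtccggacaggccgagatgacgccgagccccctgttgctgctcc
FGFR2, chr10:121598395-121598694, minus strand: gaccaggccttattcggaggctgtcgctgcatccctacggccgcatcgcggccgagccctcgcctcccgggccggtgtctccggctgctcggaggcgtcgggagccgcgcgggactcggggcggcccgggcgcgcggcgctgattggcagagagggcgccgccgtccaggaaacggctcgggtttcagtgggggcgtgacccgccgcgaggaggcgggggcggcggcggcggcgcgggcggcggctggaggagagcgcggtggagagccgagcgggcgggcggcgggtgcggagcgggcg
SPRY1, chr4:123398136-123398435, plus strand: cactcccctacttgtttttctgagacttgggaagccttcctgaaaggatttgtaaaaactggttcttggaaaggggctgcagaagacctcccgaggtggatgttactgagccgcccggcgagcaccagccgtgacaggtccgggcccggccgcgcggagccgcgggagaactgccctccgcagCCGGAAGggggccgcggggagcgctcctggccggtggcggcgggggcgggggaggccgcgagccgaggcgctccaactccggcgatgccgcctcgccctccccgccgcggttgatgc

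Both strands were searched for CACGTG (the E-box that MYC family proteins bind), CCGGAAG (an ETS core) and TTCCCGC (an E2F core), and no member window held more than 1 match. The E-box was found in FGFRL1. Its first base lay 28 bases before the start of a transcript that begins 2528 bases inside the GENCODE gene. It was also in 1 of the FGFR4 windows, 37 bases before a start that lies 2664 bases inside the gene. The FGFR4 window whose start lies 29 bases inside the gene held none. The E-box lies in 7.26% of all 35116 windows. The ETS core was found in 1 of the SPRY1 windows, 67 bases before a start that lies 1591 bases inside the gene. This core lies in 10.3% of all windows. The E2F core was in none of the member windows and lies in 6.55% of all windows. The windows differ in base composition: G and C make up 55.0% of the IL17RD window shown, 68.3% of that of FGFRL1 and 79.3% of that of FGFR2, against a median of 58.7% over all windows. This order holds for the windows shown and not for each gene, since the other IL17RD window has 71.0% and the 4 other FGFR2 windows have 47.3% to 50.7%. A match or its lack describes these letters alone.

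The word GGACT, a common m6A sequence context, was counted in the longest coding transcript of each gene in GENCODE release 29. IL17RD held 9 in 8720 bases, or 1.03 per kilobase, and FGFRL1 held 3 in 3639 bases, or 0.824 per kilobase. FGFR2 held 1.83 per kilobase and FGFR4 held 0. The median over 14021 tested coding genes was 0.934 per kilobase. Among the 7 lower members the percentiles over those genes were 88.8 for FGFR2, 89.0 for SPRY2, 79.2 for FGFR1, 56.5 for IL17RD, 42.4 for FGFRL1, 29.9 for SPRED1 and 3.8 for FGFR4. SPRY4, which was higher, lay at 41.4, and SPRY1 and FGFR3, not past the threshold, lay at 90.3 and 47.8. Whether these transcripts carry m6A was not measured here.

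Among the Sprouty and Spred genes, SPRY2 and SPRED1 were lower after knockdown, SPRY4 was higher and SPRY1 was not past the threshold. Sprouty proteins hold back receptor signalling upstream of ERK. SPRY2 (ENSG00000136158, minus strand of chromosome 13, 80335976 to 80340951) had 21.0 and 18.0 CPM in shIGF2BP3, against 33.1 and 34.0 CPM in shControl. Its groups did not overlap, with a log2 fold change of -0.78 (SE 0.12). SPRED1, which brings the RAS inhibitor neurofibromin to the membrane, lies on the plus strand of chromosome 15 (ENSG00000166068, 38252326 to 38357249). It had 45.4 and 43.3 CPM in shIGF2BP3, against 80.6 and 78.7 CPM in shControl. Its log2 fold change was -0.84 (SE 0.09), close to that of FGFR1.

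SPRY4 (ENSG00000187678, minus strand of chromosome 5, 142310427 to 142326455) went the other way. It had 130.2 and 135.4 CPM in shIGF2BP3, against 103.3 and 108.3 CPM in shControl. The groups did not overlap, and the log2 fold change was 0.33 (SE 0.07), with a range of 0.29 to 0.41 over the other scalings, filters, tests and left-out libraries. The antisense gene SPRY4-AS1 had 19 and 12 counts in shIGF2BP3 and 12 and 16 counts in shControl, far below the 2781 to 3715 counts of SPRY4. SPRY1 (ENSG00000164056, plus strand of chromosome 4, 123396795 to 123403760) had 2.82 and 4.88 CPM in shIGF2BP3, against 3.90 and 4.89 CPM in shControl. Its groups overlapped, and the log2 fold change of -0.21 (SE 0.28) was 0.15 without shIGF2BP3 replicate 1.

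Per kilobase of exon, the 5 feedback inhibitors summed to 33.4 and 33.5 CPM in shIGF2BP3, against 43.1 and 44.6 CPM in shControl. SPRY4 made up 59.4% and 61.6% of this sum in shIGF2BP3, against 36.5% and 37.0% in shControl. IL17RD made up 1.32% and 1.40% in shIGF2BP3, against 13.2% and 13.8% in shControl. SPRY2 held 20.7% and 17.7% in shIGF2BP3 and 25.3% and 25.1% in shControl. Within these 5 genes the sum was therefore mostly SPRY4 RNA after knockdown. In shControl it was spread over SPRY4, SPRY2, SPRED1 and IL17RD. SPRED2 is not among the 5, and it stood above SPRY4 per kilobase of exon in both groups. These shares therefore do not describe all Sprouty and Spred genes.

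Ordered by level per kilobase in shIGF2BP3, SPRY4 came first at 20.2 ± 0.563 CPM per kilobase (SD, n = 2), followed by FGFR1 at 6.57 ± 0.0776, SPRY2 at 6.43 ± 0.689 and SPRED1 at 5.37 ± 0.179. Then came SPRY1 at 0.973 ± 0.368, FGFR4 at 0.768 ± 0.0403 and IL17RD at 0.454 ± 0.0209. The lowest were FGFR2 at 0.218 ± 0.0116, FGFRL1 at 0.174 ± 0.102 and FGFR3 at 0.169 ± 0.0694. FGFR1 and SPRY2, SPRY1 and FGFR4, and the last 3 genes did not differ beyond their spread. In shControl the order was SPRY4 at 16.1 ± 0.544, FGFR1 at 12.0 ± 0.343, SPRY2 at 11.04 ± 0.202, SPRED1 at 9.64 ± 0.163, IL17RD at 5.93 ± 0.325 and FGFRL1 at 2.22 ± 0.192. FGFR4 at 1.75 ± 0.000228, FGFR2 at 1.68 ± 0.280, SPRY1 at 1.11 ± 0.176 and FGFR3 at 0.240 ± 0.0405 closed it, and of these neighbours FGFR4 and FGFR2 did not differ beyond their spread. The order depends on the length used: with the longest transcript, FGFR1 stood at 14.6 CPM per kilobase in shIGF2BP3 and 26.7 in shControl, where it passed SPRY4.

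**Figure D3:**
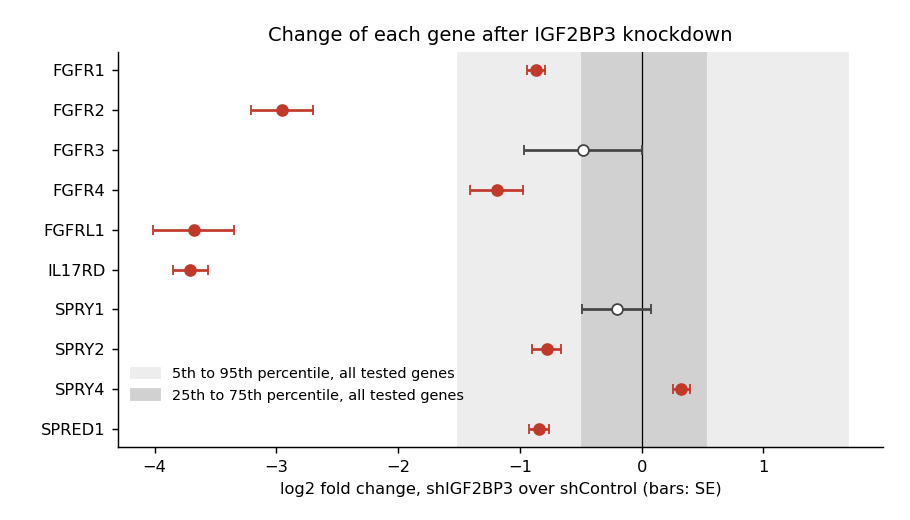
Log2 fold change of each gene, shIGF2BP3 over shControl, with bars for the SE. Filled points are past edgeR's threshold and open points are not, and the shaded bands hold the 25th to 75th and 5th to 95th percentiles of all tested genes. IL17RD (-3.71), FGFRL1 (-3.68) and FGFR2 (-2.95) lie outside the wider band, which runs from -1.51 to 1.70.

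The genes whose centred log2 CPM over the 4 libraries lay nearest to IL17RD, out of 12284 coding genes, were CACNG4 (distance 0.104), INSM1 (0.199) and PBK (0.206). CACNG4, a calcium channel subunit, had 4.87 and 5.29 CPM in shIGF2BP3, against 60.6 and 63.1 CPM in shControl. The nearest to FGFRL1 were KCNMB4 (0.532), TOX3 (0.654) and KREMEN1 (0.671). KCNMB4, a potassium channel subunit, had 0.282 and 0.401 CPM in shIGF2BP3, against 4.23 and 5.11 CPM in shControl. With 4 libraries in 2 groups, this likeness mostly ranks the size of the group difference.

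Tested coding genes within 500 kilobases of each member were set beside the 25.9% higher and 25.6% lower over all tested genes, which are not all coding. Around FGFRL1, 8 of 15 were higher, 2 were lower and 5 were not past the test, with a median log2 fold change of 0.36. The nearest on one side, IDUA, a lysosomal enzyme that breaks down heparan and dermatan sulfate, averaged 9.40 CPM in shIGF2BP3 and 1.07 CPM in shControl. IDUA was higher by 3.12 on the log2 scale (SE 0.29, adjusted p = 7.17e-08 in edgeR's test). Around FGFR3, which also lies on chromosome 4, 8 of 15 were lower and 2 higher, with a median of -0.26. They included TACC3, a mitotic spindle gene that averaged 39.4 CPM in shIGF2BP3 and 164.6 CPM in shControl. Of 8 such genes around IL17RD, itself lower, 4 were higher and 1 was lower, and its nearest neighbours ARHGEF3 and APPL1 stood at -0.23 and -0.10 on the log2 scale without passing the test. Around SPRY4, itself higher, 6 of 8 were higher and 0 lower, with a median of 0.61. Among them were NDFIP1 at 0.66 and the ligand gene FGF1 at 0.78 on the log2 scale. FGFR1 had 5 of 11 neighbours higher and 3 lower, FGFR4 had 5 of 22 higher and 8 lower, and the other members had at most 3 tested neighbours.

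Other genes of the pathway were followed in lists chosen with earlier results of these data known. Together they held 97 genes besides the 10, of which 81 were tested. In edgeR's test 28 of the 81 (34.6%) rose and 31 (38.3%) fell, against 25.9% and 25.6% of all tested genes, with a median log2 fold change of -0.16. Every adjusted p below comes from edgeR, adjusted by Benjamini-Hochberg over all tested genes.

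FGF family genes were mostly at low levels. Of 22, 10 were tested, 5 rose, 2 fell and 3 did not pass, and 7 had 0 counts in every library. Of the 18 that encode secreted FGFs 7 were tested, 4 rose, 0 fell and 3 did not pass. The median log2 fold change of the 10 tested family genes was 0.75, also with FGF11 at its bound. FGF2, a broad receptor ligand and the most abundant secreted one here, averaged 25.7 ± 0.610 CPM in shIGF2BP3 and 26.2 ± 1.23 CPM in shControl (SD, n = 2 each), a log2 difference of -0.03 (SE 0.11) that did not pass. FGF1 rose by 0.78 on the log2 scale (adjusted p = 0.00238), with 10.4 ± 1.10 CPM in shIGF2BP3 and 6.08 ± 0.330 CPM in shControl. FGF5 rose by 2.84 (adjusted p = 5.53e-05), with 2.73 ± 0.0619 CPM in shIGF2BP3 and 0.383 ± 0.0892 CPM in shControl.

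FGF11, FGF13 and FGF14 encode FGF homologous factors, which act mainly inside cells, and both family genes that fell are of this kind. FGF13 rose by 3.03 on the log2 scale (adjusted p = 0.0170) at 16 and 17 counts in shIGF2BP3, against 0 and 4 counts in shControl. FGF14 fell by 0.86 on the log2 scale (adjusted p = 3.32e-06), to 24.2 ± 1.00 CPM in shIGF2BP3, against 44.0 ± 4.09 CPM in shControl. FGF11 had 0 counts in both shIGF2BP3 libraries, against 30 and 33 counts in shControl. Set against a floor of 3 counts per library, it was at least 10.1-fold lower in shIGF2BP3.

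**Figure D4:**
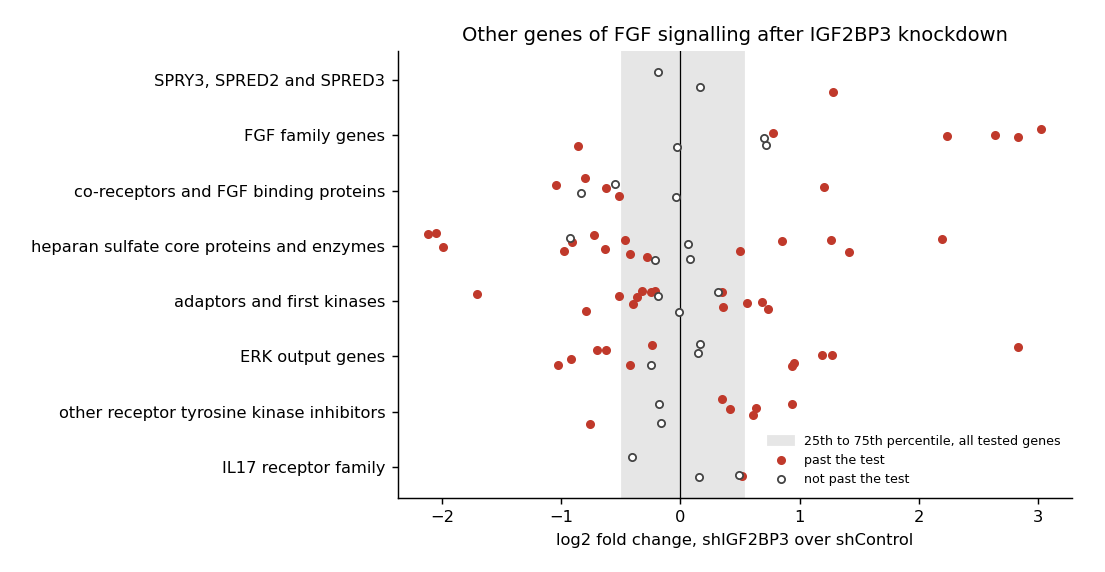
Log2 fold change, shIGF2BP3 over shControl, of the tested genes in each list, 1 point per gene, filled where past edgeR's threshold. The grey band holds the 25th to 75th percentile of all tested genes, and FGF11 is not drawn because it had 0 counts in shIGF2BP3. Most lists spread to both sides of 0.

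Of 11 co-receptors and FGF binding proteins, 8 were tested, 1 rose, 4 fell and 3 did not pass. Their median log2 fold change was -0.59. NCAM1, a neural adhesion molecule that can bind FGF receptors, rose by 1.21 on the log2 scale (SE 0.06, adjusted p = 3.21e-11). It averaged 664.0 ± 24.2 CPM in shIGF2BP3 and 287.6 ± 6.67 CPM in shControl (SD, n = 2 each). L1CAM, another neural adhesion molecule, fell by 1.04 (adjusted p = 3.21e-09) to 166.9 ± 1.23 CPM in shIGF2BP3, against 344.1 ± 37.9 CPM in shControl. N-cadherin (CDH2) fell by 0.51 (adjusted p = 4.16e-06), and FLRT3, a membrane protein that promotes FGF signalling in Xenopus, fell by 0.80 (adjusted p = 0.00678). KL and FGFBP1 had 0 counts in all 4 libraries.

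Heparan sulfate genes moved in both directions. Of 20 core proteins and enzymes, 19 were tested, 5 rose, 10 fell and 4 did not pass. Their median log2 fold change was -0.43. SDC2, a syndecan that carries heparan sulfate at the cell surface, fell by 2.05 on the log2 scale (SE 0.08, adjusted p = 1.26e-12). It averaged 36.5 ± 0.897 CPM in shIGF2BP3 and 151.1 ± 1.03 CPM in shControl (SD, n = 2 each). HS2ST1, a heparan sulfate sulfotransferase, fell by 2.11 (SE 0.10, adjusted p = 1.80e-11) to 16.6 ± 0.428 CPM in shIGF2BP3, against 72.0 ± 4.15 CPM in shControl. HS6ST3, which adds sulfate at another position, rose by 1.41 (adjusted p = 3.43e-10) to 156.6 ± 18.5 CPM in shIGF2BP3, against 58.8 ± 0.356 CPM in shControl. Its relatives HS6ST1 and HS6ST2 stood at -0.43 and -0.91 on the log2 scale, both lower past the test. SULF2, an extracellular sulfatase that removes such groups, rose by 1.27 (adjusted p = 3.96e-10) to 141.7 ± 4.36 CPM in shIGF2BP3, against 58.9 ± 4.08 CPM in shControl.

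Of 16 adaptors and first kinases, 5 rose, 8 fell and 3 did not pass. Their median log2 fold change was -0.20. PTPN11, which encodes SHP2, fell by 1.70 on the log2 scale (SE 0.07, adjusted p = 2.66e-12). It averaged 69.7 ± 1.51 CPM in shIGF2BP3 and 226.8 ± 5.14 CPM in shControl (SD, n = 2 each). FRS2, the adaptor docked on FGF receptors, rose by 0.73 (adjusted p = 3.82e-06) to 62.4 ± 4.33 CPM in shIGF2BP3, against 37.6 ± 2.05 CPM in shControl. Its relative FRS3 stood at 0.31 and did not pass. The kinases MAP2K1 and MAP2K2, which phosphorylate ERK, fell by 0.79 and 0.52 (adjusted p = 1.66e-06 and 1.32e-05). By library size scaling alone 5 of the 16 fell.

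Of 14 ERK output genes, 5 rose, 6 fell and 3 did not pass. Their median log2 fold change was -0.05. ETV5 and ETV4, ETS factors that FGF signalling induces, fell by 1.03 (SE 0.09, adjusted p = 2.26e-08) and 0.42 (SE 0.09, adjusted p = 0.00105). ETV5 averaged 40.7 ± 1.21 CPM in shIGF2BP3 and 82.9 ± 4.34 CPM in shControl (SD, n = 2 each). Their relative ETV1 did not fall: it stood at 0.15 (SE 0.08) without passing, with 84.1 ± 0.678 CPM in shIGF2BP3 and 75.8 ± 2.23 CPM in shControl. DUSP6, a phosphatase that removes phosphate from ERK, fell by 0.92 (adjusted p = 6.02e-06) to 18.6 ± 2.75 CPM in shIGF2BP3, against 35.2 ± 0.974 CPM in shControl. DUSP4 and DUSP5, phosphatases of the same family, rose by 0.95 (adjusted p = 1.80e-09) and 1.27 (adjusted p = 2.01e-06). FOSL1, an AP-1 subunit, rose by 2.83 (adjusted p = 1.61e-06) to 5.77 ± 0.681 CPM in shIGF2BP3, against 0.813 ± 0.111 CPM in shControl.

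The remaining Sprouty and Spred genes gave 1 call. SPRED2, the most abundant of them, averaged 167.3 ± 0.854 CPM in shIGF2BP3 and 149.7 ± 6.95 CPM in shControl (SD, n = 2 each), a log2 difference of 0.16 (SE 0.07, adjusted p = 0.0604). SPRED2 passed the test without shControl replicate 1 (adjusted p = 0.0491) and under some other settings. SPRY3 rose by 1.28 on the log2 scale (SE 0.43, adjusted p = 0.0180) at 59 and 53 counts in shIGF2BP3 and 29 and 19 counts in shControl. That call ended without shIGF2BP3 replicate 1 (adjusted p = 0.0731) and without shControl replicate 2 (adjusted p = 0.198, log2 0.88). SPRED3 stood at -0.19 (SE 0.45) and did not pass.

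Of 8 genes listed as other inhibitors of receptor tyrosine kinases or RAS, 5 rose, 1 fell and 2 did not pass. The list includes the kinase TESK1, which is not itself such an inhibitor. TESK1 stood at -0.16 on the log2 scale (SE 0.16) and did not pass. The median log2 fold change of the 8 genes was 0.38. SH2B3, an adaptor that damps cytokine and growth factor receptors, rose by 0.94 (adjusted p = 1.73e-07) to 73.8 ± 2.76 CPM in shIGF2BP3, against 38.5 ± 3.88 CPM in shControl (SD, n = 2 each). LZTR1, which promotes the breakdown of RAS proteins, rose by 0.61 (adjusted p = 2.93e-06), and ERRFI1, an inhibitor of the EGF receptor, rose by 0.64 (adjusted p = 2.94e-04). RASA1, a GTPase-activating protein for RAS, fell by 0.76 (adjusted p = 3.19e-06) to 31.0 ± 1.62 CPM in shIGF2BP3, against 52.5 ± 0.344 CPM in shControl.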

How the data were processed

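RNA-seq of 4 libraries of SK-N-BE(2) cells was read from the gene table that the authors deposited, which holds raw counts. Per the submitters' processing notes HISAT2 2.2.0, StringTie and hg38 were used. The annotation, counting rule and strand setting were not given in the sources used here. Symbols came from a gene name table (40995 identifiers) and GENCODE release 29 (15596), and 7661 had none.

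The test was that of edgeR 4.0.16 under R 4.3.3: filterByExpr with a minimum count of 10, TMM scaling, and the robust quasi-likelihood test of shIGF2BP3 against shControl, with Benjamini-Hochberg adjustment over 19767 genes. Residual degrees of freedom were 2, and the prior shared across genes was worth a median of 15.06 more. P-values measure only the spread between libraries, which may be technical. Replicates differed by more than sampling noise (chi-square per degree of freedom 7.26 in shIGF2BP3 and 8.43 in shControl). A count of 0 allows up to 3 counts, 0.0958 to 0.111 CPM, for counting error only. Coordinates and exon lengths are GENCODE release 29 on GRCh38.

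The members and lists were chosen with earlier results of these data known. Named genes were all members, up to 4 genes of each list by smallest p, 8 genes fixed by name, and the 3 nearest profiles to IL17RD and FGFRL1. FGF2, FGF13, KL, FGFBP1, HS6ST1, HS6ST2, ETV1, TESK1, MYCN and DBH were named after their values were seen. So were the overlapping and neighbouring genes on the chromosome. Alternatives used DESeq2 1.42.0, limma 3.58.1, other scalings and filters, a replicate block and left-out libraries. In simulated counts for this comparison over 19243 genes, a 1.5-fold change was found in 19 of 67 genes, a 2-fold change in 62 of 67 and a 4-fold change in 66 of 66. False calls numbered 17. The simulation changed 200 genes, all with a mean above 2 CPM, and gave every gene the same dispersion. In the real libraries 51.5% of tested genes were called, so these shares do not give the detection rate there. Protein sequences were not used here, so no protein identities are given.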

Additional observations from a re-analysis of the deposited data

How the results depend on the processing

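The 7 lower members and the 1 higher member were past the test in the same number under every other scaling, filter and test that was run and without any single library. Each of these fits used libraries from the comparison by which the group was chosen, so this is a description only. If a log2 change of 1 or more was also required, 4 members were lower and 0 higher, and over all genes 1810 lower and 2046 higher, by construction. Without a low-count filter 4336 genes were lower and 4421 higher, and with DESeq2 4554 and 4315. Under that fold condition the lists had 1 lower (FGF11, a homologous factor) and 4 higher FGF family genes, 1 lower and 1 higher co-receptors, 3 lower and 3 higher heparan sulfate genes, 1 lower and 0 higher adaptors, 1 lower and 3 higher ERK output genes, 0 lower and 0 higher other inhibitors and 0 higher IL17 receptors. By library size alone, 5 adaptors were lower and 2 Sprouty or Spred genes higher. The last count was also 2 with upper quartile scaling and with a filter of 1 CPM, 0 with DESeq2, and 0 to 2 without single libraries. The FGF family had 2 higher genes under the 1 CPM filter and 3 with DESeq2. Lower IL17 receptors numbered 0 to 1 without single libraries. For these changes in list counts the cause was not tested. Without single libraries SPRY1 lay between -0.65 and 0.15, SPRED3 between -0.74 and 0.23, FGF2 between -0.10 and 0.014 and IL17RE between -0.14 and 0.45, so their directions are not settled. FGF2 was 0.051 with library size scaling and 0.023 with upper quartile scaling. The replicate block gave 5291 higher and 5218 lower genes, and libraries with the same number had deviations correlated at 0.021, and were not treated as pairs. The block changed no member's call. Among 468 values of 36 other named genes, 454 kept direction and side, 5 gained a call, 3 lost one and 6 turned without a call. The older edgeR fit, chosen after seeing the data, kept all members on their side.

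With the longest transcript as the length, levels per kilobase in shIGF2BP3 and shControl were 14.6 and 26.7 for FGFR1, 0.378 and 2.91 for FGFR2, 1.19 and 2.71 for FGFR4, 0.498 and 6.50 for IL17RD, 1.48 and 1.69 for SPRY1, 7.21 and 12.4 for SPRY2, 24.8 and 19.8 for SPRY4, and 5.70 and 10.2 for SPRED1. FGFRL1 in shControl was 2.53. FGFR3 had at most 35 counts per library and an SE of 0.48, against 0.07 for FGFR1.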
